A study of Homo sapiens with 18 samples.

Results

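The genes of the integrated stress response were described as a set of 40 members, picked by gene symbol from the 58870 rows of the deposited count table. They are ATF4, the sensors and phosphatase subunits that act on eIF2, and genes that ATF4 or its partners are known to control, with the aminoacyl-tRNA synthetases left out. All 40 had enough counts to be tested, among 17962 genes tested in all.

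The 18 bulk RNA-Seq libraries came from HEK293 Flp-In cells, an embryonic kidney line with a built-in recombinase site for placing a transgene. They make up 6 conditions with 3 libraries each. Cells without a transgene were transfected with siNT, a control siRNA, or with siNRF1, which targets NRF1, and so were a line carrying full-length NRF1 (NRF1-FL) and a line carrying NRF1 without exon-7 (NRF1-ΔE7). All libraries are labelled siRNA and dox, the transgenes being FLAG-tagged, doxycycline-inducible and resistant to siNRF1, with doxycycline given 24 h after transfection per the labels. The published methods of the isoform rescue give an earlier start of doxycycline, and which time holds is not settled here. NRF1 binds GC-rich promoters, many of them of genes for cellular energetics, and the comparisons ask what losing it does and whether NRF1-ΔE7 can stand in for NRF1-FL. The lines were stable and hygromycin-selected, and a difference between the isoforms cannot be told apart from one between lines made separately. The sources used here do not say whether the cells without a transgene carried a control insert.

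The integrated stress response starts when a kinase phosphorylates the alpha subunit of eIF2, which slows general translation while ATF4 mRNA is translated more. ATF4 protein then pairs with other bZIP factors and turns on genes for amino acid synthesis and uptake, one-carbon metabolism, redox balance and, under lasting stress, cell death. Because ATF4 is controlled largely through translation, its mRNA level is only part of its regulation, and in these libraries RNA alone was measured.

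Library totals ran from 31.2 to 44.8 M counts, and libraries of a condition differed from each other by more than counting noise. Labels give the replicates only numbers, and the spread behind each p-value may therefore be technical. NRF1 itself fell after siNRF1 in cells without a transgene, from 31.1, 29.9 and 29.3 CPM (counts scaled to library size, with TMM factors) to 7.19, 9.25 and 7.70 (log2 fold-change -1.92, SE 0.0605, adjusted p = 5.854e-18). Endogenous and transgene RNA are counted together, and NRF1 stood at 49.6 CPM ± 0.715 (SD, n = 3) in the NRF1-FL line and 38.3 CPM ± 1.35 in the NRF1-ΔE7 line under siNRF1 (adjusted p = 9.031e-07 for the difference). The 7 markers listed for HEK293 were all tested and summed to 1816 to 2426 CPM, of which VIM, expressed in many cell types, made up 1314 to 1711. The kidney markers PAX2 and LHX1 ran from 2.702 to 7.55 CPM and the neurofilament NEFM from 0.922 to 2.32, while NEFL had 158 to 244. Summed, 4 hepatocyte markers came to at most 0.299 CPM in every library. Blood and endothelial markers stayed below 1 CPM in sum, at up to 0.252 and 0.977, and fibroblast markers at 10.3 to 14.4 CPM. The third siNRF1 library without a transgene stood apart, with KRT5 at 12.6 CPM and KRT6A at 3.43 CPM. Of the other keratinocyte markers listed, TP63 was at 1.63 CPM there and KRT14 at only 0.0480 CPM. The first library of that condition had 2.02 CPM of KRT5 and 2.45 CPM of KRT6A. Together 4 keratinocyte markers reached 17.7 CPM in that condition. In the NRF1-ΔE7 line they reached 1.66 CPM with siNT and 2.22 CPM with siNRF1, and in the other conditions at most 0.142 CPM. The NRF1-ΔE7 maxima were those of the second libraries, with KRT5 at 0.494 CPM (siNT) and 1.41 CPM (siNRF1). Their part in the results was not tested. Values without the third library are given for the member counts of siNRF1 against siNT without a transgene. They are also given for the interactions of PPP1R15A, SLC7A5 and MTHFD2. For the second list and for the members shared by all 3 lines they were not worked out. In bulk samples, fewer cells of a type and less RNA per cell cannot be told apart.

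Levels between genes were compared per kb of exon, with the length taken over all annotated transcripts of a gene. In siNT cells without a transgene ATF4 (chr22:39519695-39522683, plus strand, hg38) was the highest member at 203 CPM per kb, ahead of the glutamine carrier SLC1A5 at 104, the translation repressor EIF4EBP1 at 94.3 and the serine synthesis enzyme PSAT1 at 91.5. The lowest members were the lipoprotein receptor VLDLR at 1.07, the hormone FGF21 at 0.175 and the stress protein NUPR1 at 0.154 CPM per kb. The rank of VLDLR depends on its 16507 annotated exon bases: it had 17.6 CPM in these cells, against 4.54 for GDF15 and 4.81 for CHAC1. NUPR1 (0.231 to 1.08 CPM) and FGF21 (0.115 to 1.04 CPM) were low in CPM too and carry wide errors in every comparison. CBS shares its sequence with a near-identical copy, CBSL, and 19576 counts went to CBS against 59119 to CBSL over the 18 libraries, so CBS values are uncertain. Exons of 13 members overlap a gene on the opposite strand, and the sources used here do not give the strand setting of the counting. ATF5, DDIT3, SLC7A5, MTHFD2 and SHMT2 are among these 13. Exons of 5 members, ATF5, DDIT3, ASNS, PYCR1 and NUPR1, overlap a gene on the same strand. Estimated counts that are not whole were found in ATF4, DDIT3, ASNS, MTHFD2, SLC7A5, CBS and XPOT. What these overlaps and fractions do to the values was not tested.

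**Figure D1:**
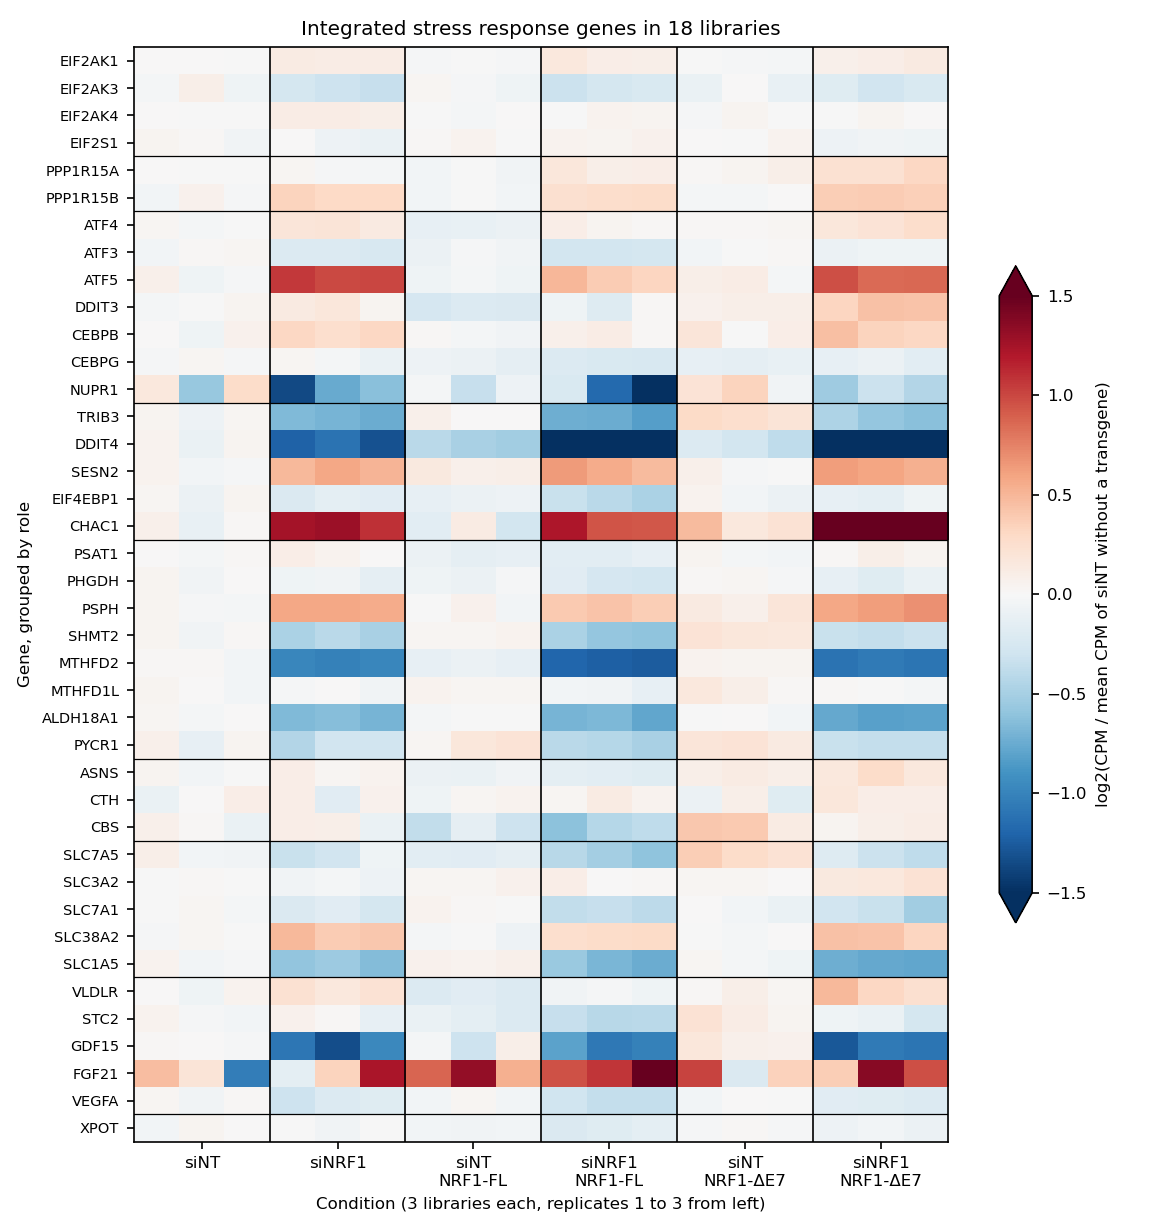
Level of each of the 40 genes (rows, grouped by role) in each of the 18 libraries (columns, 3 per condition), as log2 of CPM over the mean CPM of siNT cells without a transgene. CHAC1 and ATF5 are red and DDIT4, MTHFD2 and GDF15 are blue in all 9 siNRF1 libraries, while NUPR1 and FGF21 scatter between replicates.

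Promoter sequences were searched for TGATGNAA, the core of the C/EBP-ATF response element through which ATF4 and a C/EBP partner bind DNA, on both strands of 300-base RefSeq windows (250 before and 50 after each start, GRCh38.p14). A match was found in 1270 of 35116 windows (3.62%) and in 12 of 52 windows of the 33 members that have one (23.1%), which belong to 10 genes. Windows of nearby starts overlap, so a site can be counted more than once. The MTHFD1L site in chr6:150866346-150866375 was counted from separate starts, at -129, -90 and 24 bases from them. EIF2AK1, EIF4EBP1, PSPH, SHMT2, PYCR1, NUPR1 and VEGFA had no window. The lines below show 6 of the upstream matches, with the match in capitals and each sequence given on the strand of its gene. They are shown because these genes differ in how they respond, from CHAC1, the largest increase in the set, to SLC1A5, which fell.
CHAC1, chr15:40953251-40953280: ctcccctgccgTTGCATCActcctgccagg
ASNS, chr7:97872458-97872487: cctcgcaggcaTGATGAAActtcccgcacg
ATF3, chr1:212565205-212565234: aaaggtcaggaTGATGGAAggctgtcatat
CEBPG, chr19:33374060-33374089: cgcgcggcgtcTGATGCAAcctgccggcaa
PPP1R15B, chr1:204412026-204412055: cccgccccggcTGATGCAAcctcacgctgc
SLC1A5, chr19:46784893-46784922: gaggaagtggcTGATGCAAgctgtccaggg
In CHAC1 the match reads on the opposite strand. Bases between match and start number 201 in CHAC1, 60 in ASNS, 183 in ATF3, 34 in CEBPG, 219 in PPP1R15B and 89 in SLC1A5. The NRF1 motif GCGCANGCGC was found in 2031 windows (5.78%) and in 2 member windows (3.85%), those of SLC3A2 and EIF2S1. A match is a description of the letters and not a bound site.

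The siNRF1 guide can also pair with other mRNAs through its seed, so the set was checked for seed matches. Read from the published sense strand, the guide is as follows, with bases 2 to 8 in capitals.
siNRF1 guide: aGAUACAGaggacaauagc
The 7-base match CTGTATC occurs in the 3′ UTR of 1568 of 14245 tested genes (11%) and of 2 of the 40 members (5.0%), ASNS and NUPR1. In ASNS it is followed by A, a longer match that 550 genes (3.86%) hold.
ASNS, chr7:97852059-97852065, minus strand: gaactgttttgCTGTATCacagtaaagtg
NUPR1, chr16:28534321-28534327, minus strand: cccttggggacCTGTATCcatccccttcc
Both coordinates are those of the match (hg38). The values of ASNS and NUPR1 under siNRF1 are given below, and the part of the guide in them was not tested.

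After siNRF1, members of the set moved in both directions in cells without a transgene. A gene passed at an adjusted p under 0.05, two-sided, from edgeR's quasi-likelihood test over all genes. With siNRF1 11 members were higher and 16 lower than with siNT, against 32.1% higher and 32.4% lower among all genes tested. Their median log2 fold-change was -0.02, against 0.01 over all genes. Under upper-quartile scaling the split was 16 higher and 14 lower, and without the third siNRF1 library it was 13 higher and 15 lower. The same comparison in the NRF1-FL line gave 11 higher and 22 lower (32.2% and 31.3% of all genes; 15 and 16 under upper-quartile scaling), with a median of -0.12 against 0.02. In the NRF1-ΔE7 line 15 were higher and 18 lower (34.5% and 33.6%; 18 and 11 under upper-quartile scaling), with a median of -0.06 against 0.02. These 3 comparisons share no libraries. In all 3, 9 members were higher (22.5%, against 25.8% of all genes) and 13 lower (32.5%, against 26.6%). Under TMM scaling the share of members that were lower was above that of all genes in each of the 3. It was 40% for no transgene, 55% for NRF1-FL and 45% for NRF1-ΔE7, and the share that were higher was 27.5%, 27.5% and 37.5%. All shares of all genes given here are under TMM scaling. They were not worked out under upper-quartile scaling, so whether the excess of lower members holds there was not tested.

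**Figure D2:**
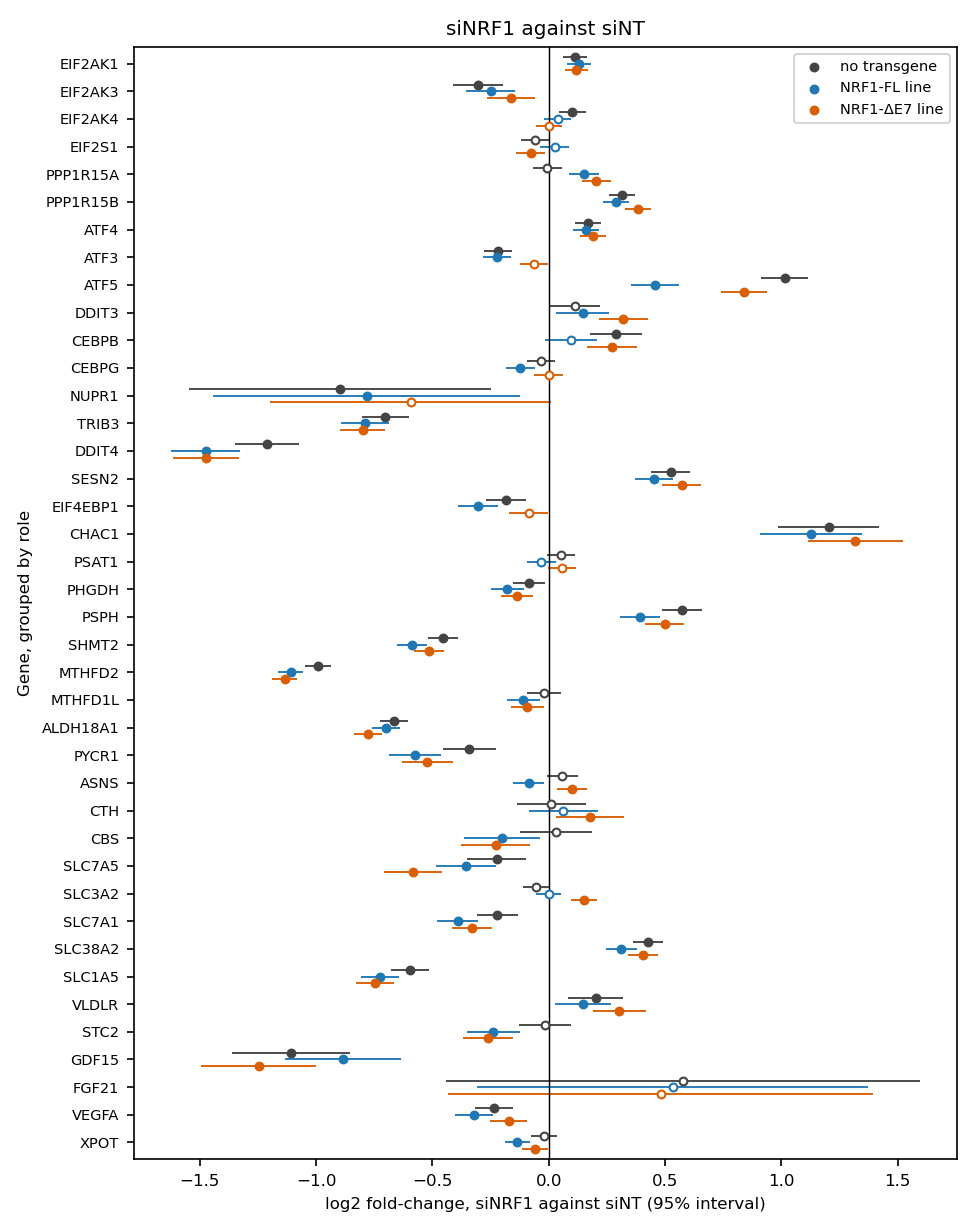
log2 fold-change of each gene, siNRF1 against siNT, with 95% intervals, for no transgene (dark grey), NRF1-FL (blue) and NRF1-ΔE7 (orange). Filled points passed at an adjusted p under 0.05 and open points did not. CHAC1 and DDIT4 mark the ends in all 3, and ATF5 is separated by line.

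ATF4, the central transcription factor, was modestly higher after siNRF1 in each line. Without a transgene it went from 543, 523 and 529 CPM with siNT to 602, 608 and 584 with siNRF1. The NRF1-FL line had 489, 491 and 498 CPM with siNT and 568, 546 and 538 with siNRF1. For NRF1-ΔE7 the values were 538, 539 and 542 with siNT and 597, 615 and 638 with siNRF1. All siNRF1 libraries lay above the siNT libraries of their own line. The log2 fold-changes were 0.17 (SE 0.0270, adjusted p = 7.62e-06), 0.16 (SE 0.0270) and 0.19 (SE 0.0269), and they passed in each line.

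Among the other transcription factors, ATF5, which supports the mitochondrial branch of the response, showed a far larger change than ATF4. Without a transgene ATF5 measured 29.4, 26.7 and 27.5 CPM with siNT and 58.1, 55.4 and 55.8 with siNRF1. In the NRF1-FL line it measured 26.7, 27.3 and 26.6 CPM with siNT and 39.3, 36.2 and 34.9 with siNRF1, and in the NRF1-ΔE7 line 29.6, 30.05 and 27.4 with siNT and 54.6, 50.4 and 50.8 with siNRF1. The siNT levels of the 3 lines lay close together, whereas under siNRF1 the NRF1-FL libraries were below all others. The log2 fold-changes were 1.01 (SE 0.0482, adjusted p = 1.135e-14), 0.46 (SE 0.0498, adjusted p = 2.86e-08) and 0.84 (SE 0.0476, adjusted p = 2.256e-13). DDIT3 (CHOP), the factor linked to cell death, passed with NRF1-ΔE7 (0.32) and, for NRF1-FL, at 0.15 (a call lost in 6 of the alternative settings), and its value without a transgene was 0.11 (adjusted p = 0.06599). CEBPB, a partner of ATF4, was higher without a transgene (0.29) and with NRF1-ΔE7 (0.27) and stood at 0.10 with NRF1-FL, where it did not pass. The stress factor ATF3 fell by 0.22 both without a transgene and with NRF1-FL, and its value with NRF1-ΔE7 was -0.06 (adjusted p = 0.05324). CEBPG, the other C/EBP partner, fell by 0.12 with NRF1-FL (-0.04 and not passed under upper-quartile scaling). Its values were -0.03 without a transgene and 0.00 with NRF1-ΔE7, and neither passed. Upper-quartile scaling also added calls of higher values. They were DDIT3 without a transgene (0.20), CEBPB with NRF1-FL (0.18) and CEBPG with NRF1-ΔE7 (0.10). NUPR1, low throughout, fell by 0.90 without a transgene and by 0.78 with NRF1-FL, both calls being lost when single libraries were left out, and its value with NRF1-ΔE7 was -0.59 (not passed).

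Upstream of ATF4, changes at the eIF2 kinases and phosphatase were small. EIF2AK1 (HRI), the heme-regulated kinase that also relays mitochondrial stress, was higher by 0.11 without a transgene, 0.13 with NRF1-FL and 0.12 with NRF1-ΔE7 (log2). EIF2AK3 (PERK), the kinase of the endoplasmic reticulum, was lower by comparison, with log2 fold-changes of -0.30, -0.25 and -0.16 in the same order, the last being -0.07 and not passed under upper-quartile scaling. EIF2AK4 (GCN2), the sensor of uncharged tRNA, passed without a transgene (0.10), and its values were 0.04 with NRF1-FL and 0.00 with NRF1-ΔE7, where it passed under upper-quartile scaling alone, at 0.12 and 0.10. EIF2S1, the phosphorylated subunit itself, passed with NRF1-ΔE7 only (-0.08, and 0.02 and not passed under upper-quartile scaling). Under that scaling it passed as higher with NRF1-FL (0.11). PPP1R15B, which keeps basal eIF2 phosphorylation low, rose by 0.31, 0.29 and 0.39. PPP1R15A (GADD34), the stress-induced phosphatase subunit, was at 127, 127 and 127 CPM with siNT and 129.6, 126 and 125 with siNRF1 in cells without a transgene. The NRF1-FL line had 124, 127 and 123 CPM with siNT and 144, 135 and 137 with siNRF1, and the NRF1-ΔE7 line had 129, 131 and 135 with siNT and 149, 149.7 and 158 with siNRF1. The groups overlapped without a transgene (log2 fold-change -0.01) and did not overlap in the lines, where PPP1R15A rose by 0.15 (NRF1-FL) and 0.20 (NRF1-ΔE7).

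The feedback and growth-control genes split between the largest increases and the largest decreases of the set. CHAC1, which degrades glutathione, measured 5.09, 4.47 and 4.88 CPM with siNT and 11.4, 11.7 and 10.3 with siNRF1 in cells without a transgene. It measured 4.31, 5.25 and 3.98 CPM with siNT and 11.2, 9.23 and 9.20 with siNRF1 for NRF1-FL, and 6.71, 5.38 and 5.61 with siNT and 14.3, 15.8 and 13.97 with siNRF1 in the NRF1-ΔE7 line. CHAC1 thus more than doubled in each line, with log2 fold-changes of 1.20 (SE 0.105, adjusted p = 6.183e-10), 1.13 (SE 0.106, adjusted p = 2.496e-09) and 1.32 (SE 0.0981, adjusted p = 3.194e-11). SESN2, a leucine sensor that restrains mTORC1, had 65.4, 61.1 and 62.1 CPM with siNT and 88.4, 93.9 and 89.4 with siNRF1 without a transgene. With NRF1-FL it had 69.8, 66.2 and 67.0 CPM under siNT and 97.5, 92.7 and 87.4 under siNRF1, and with NRF1-ΔE7 66.1, 62.1 and 62.5 under siNT and 96.9, 95.1 and 91.3 under siNRF1. SESN2 rose by 0.52, 0.45 (adjusted p = 9.754e-10) and 0.57 (adjusted p = 1.251e-11), and the groups did not overlap in any line.

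DDIT4 (REDD1), another inhibitor of mTORC1, went the other way. It measured 75.5, 67.6 and 74.9 CPM with siNT and 31.3, 33.8 and 29.5 with siNRF1 in cells without a transgene. The NRF1-FL line had 55.0, 52.0 and 50.8 CPM with siNT and 19.99, 19.3 and 17.4 with siNRF1, and the NRF1-ΔE7 line 62.9, 59.9 and 56.0 with siNT and 21.3, 24.1 and 19.1 with siNRF1. DDIT4 was the largest decrease of the set in each line, with log2 fold-changes of -1.21 (SE 0.0656, adjusted p = 1.32e-13), -1.47 (SE 0.0715, adjusted p = 1.879e-14) and -1.47 (SE 0.0685, adjusted p = 6.039e-15). TRIB3, a pseudokinase target of ATF4 that restrains it in turn, fell by 0.70, 0.79 and 0.80. EIF4EBP1, the repressor of cap-dependent translation, fell by 0.18 without a transgene and by 0.31 with NRF1-FL, and its value with NRF1-ΔE7 was -0.09 (adjusted p = 0.06483).

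**Figure D3:**
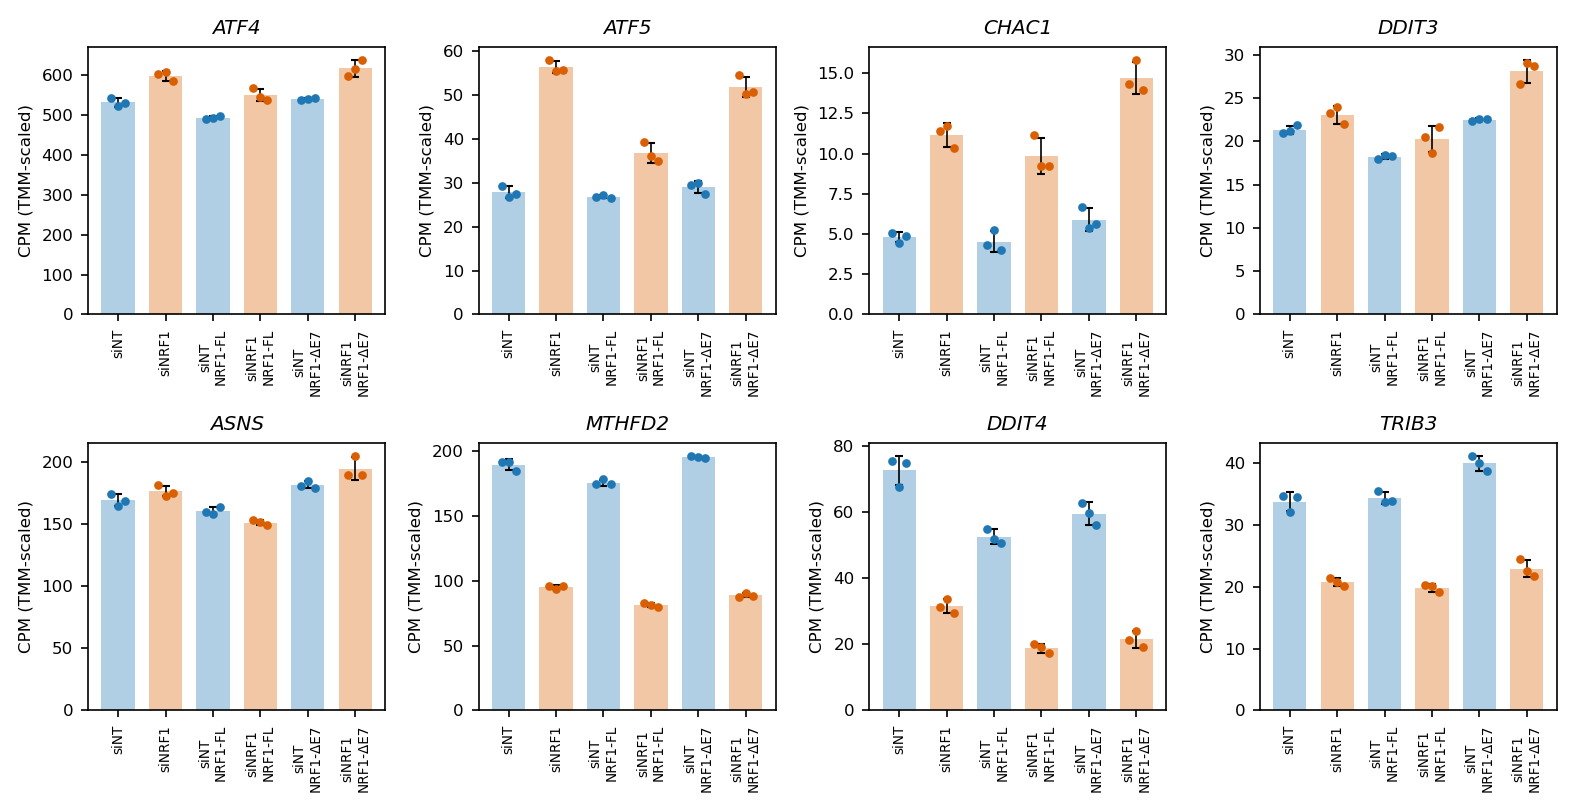
CPM on the TMM scale for 8 of the genes in the 6 conditions, each point a library, bars the mean and whiskers the SD of 3 libraries, with siNT in blue and siNRF1 in orange. DDIT4, MTHFD2 and TRIB3 are lower in every siNRF1 library than in any siNT library, and ATF5 under siNRF1 is lowest in the NRF1-FL line.

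The enzymes of serine, one-carbon and proline synthesis were mostly lower after siNRF1. Of 8, 5 fell and 1 rose without a transgene, and 6 fell and 1 rose in each of the other lines, beside 32.4%, 31.3% and 33.6% of all genes that fell, MTHFD1L with NRF1-ΔE7 being at 0.00 under upper-quartile scaling. MTHFD2, the mitochondrial folate enzyme, measured 192, 192 and 185 CPM with siNT and 96.2, 93.6 and 95.9 with siNRF1 in cells without a transgene. It measured 174, 178 and 174 CPM with siNT and 83.1, 81.0 and 80.1 with siNRF1 for NRF1-FL, and 196, 195 and 194 with siNT and 87.8, 90.6 and 88.4 with siNRF1 in the NRF1-ΔE7 line. The replicates were tight and far apart between siRNAs, with log2 fold-changes of -0.99 (SE 0.0261, adjusted p = 2.158e-19), -1.11 (SE 0.0264, adjusted p = 4.356e-20) and -1.14 (SE 0.0260, adjusted p = 1.22e-20). ALDH18A1, which starts proline synthesis, fell by 0.67, 0.70 and 0.78. SHMT2, the mitochondrial serine hydroxymethyltransferase, fell by 0.46, 0.59 and 0.52, and PYCR1, the last enzyme of proline synthesis, by 0.34, 0.57 and 0.52.

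Within serine synthesis the 3 enzymes did not move as one. PSPH, which takes the last step, measured 28.8, 27.6 and 27.4 CPM with siNT and 41.9, 41.7 and 41.1 with siNRF1 in cells without a transgene. The NRF1-FL line had 27.9, 29.2 and 27.2 CPM with siNT and 36.7, 37.7 and 36.2 with siNRF1, and the NRF1-ΔE7 line 30.8, 29.4 and 31.7 with siNT and 41.8, 43.1 and 45.03 with siNRF1. PSPH rose by 0.57 (SE 0.0412, adjusted p = 2.119e-11), 0.39 and 0.50. PHGDH, which takes the first step, fell by 0.09, 0.18 and 0.14, the first of these being lost in 5 of the alternative settings and the last under upper-quartile scaling. PSAT1, between them, had log2 fold-changes of 0.05, -0.03 and 0.06 and passed in no line. Under upper-quartile scaling PSAT1 passed without a transgene (0.14) and with NRF1-ΔE7 (0.16). MTHFD1L, another mitochondrial folate enzyme, stood at -0.02 (not passed) without a transgene and fell by 0.11 and 0.09 in the lines.

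ASNS, the asparagine synthetase and a classic ATF4 target, changed little and, under TMM scaling, differed in direction between lines. It measured 174, 165 and 169 CPM with siNT and 181, 173 and 175 with siNRF1 in cells without a transgene, where the groups overlapped. In the NRF1-FL line it measured 159, 158 and 164 CPM with siNT and 153, 151 and 149 with siNRF1, and in the NRF1-ΔE7 line 180.4, 185 and 179 with siNT and 189, 205 and 189 with siNRF1. ASNS fell by 0.09 with NRF1-FL (lost in 3 of the alternative settings) and rose by 0.10 with NRF1-ΔE7 (lost without the second siNRF1 library of that line). Its log2 fold-change without a transgene was 0.06 (adjusted p = 0.1135). Under upper-quartile scaling ASNS passed as higher without a transgene (0.14) and with NRF1-ΔE7 (0.20). With NRF1-FL it was then at -0.003 and did not pass. Under TMM scaling ASNS was the only member that passed in opposite directions, as did 0.718% of all genes. Of the transsulfuration enzymes, CTH passed with NRF1-ΔE7 only (0.18, lost in 5 of the alternative settings) and CBS fell by 0.20 with NRF1-FL and 0.23 with NRF1-ΔE7, with a value of 0.03 without a transgene. The CBS calls were lost in 3 of the alternative settings with NRF1-FL and in 2 with NRF1-ΔE7. The log2 fold-change of the copy CBSL was -0.12 with NRF1-FL, where it passed (adjusted p = 0.02933). It was -0.07 without a transgene and 0.02 with NRF1-ΔE7, and neither passed.

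Of 5 amino acid transporters, SLC38A2 (SNAT2), the system A carrier, was the one that rose in every line, by 0.43, 0.31 and 0.41. Decreases were seen for SLC1A5 (ASCT2, -0.60, -0.72 and -0.75), for the arginine carrier SLC7A1 (-0.22, -0.39 and -0.33) and for the light chain SLC7A5 of the leucine carrier LAT1 (-0.22, -0.36 and -0.58, the first lost under upper-quartile scaling). SLC3A2, the heavy chain that partners SLC7A5, had 219, 223 and 219 CPM with siNT and 212, 216 and 209 with siNRF1 in cells without a transgene. It had 224, 225 and 230.0 CPM with siNT and 235, 222 and 223 with siNRF1 for NRF1-FL, and 224, 225 and 221 with siNT and 244, 245 and 255 with siNRF1 in the NRF1-ΔE7 line. SLC3A2 passed with NRF1-ΔE7 only (0.15), so the pair of LAT1 chains moved in opposite directions in that line. Its value was -0.05 without a transgene (not passed) and 0.00 with NRF1-FL (0.08 under upper-quartile scaling, where it passed, adjusted p = 0.01274).

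Among secreted factors and receptors, GDF15, the stress hormone that lowers appetite, showed a clear decrease. It measured 4.59, 4.54 and 4.48 CPM with siNT and 2.14, 1.81 and 2.33 with siNRF1 in cells without a transgene. With NRF1-FL it measured 4.46, 3.65 and 4.81 CPM with siNT and 2.61, 2.15 and 2.25 with siNRF1, and in the NRF1-ΔE7 line 5.11, 4.77 and 4.76 with siNT and 1.88, 2.17 and 2.12 with siNRF1. No siNRF1 library reached a siNT library, and the log2 fold-changes were -1.11 (SE 0.122, adjusted p = 3.323e-08), -0.88 (SE 0.121, adjusted p = 9.46e-07) and -1.25 (SE 0.120, adjusted p = 2.786e-09). VEGFA, the angiogenic growth factor, fell by 0.23, 0.32 and 0.17, the last being lost under upper-quartile scaling. VLDLR rose by 0.20, 0.15 (lost in 7 of the alternative settings) and 0.30. STC2, a secreted glycoprotein, stood at -0.02 (not passed) without a transgene and fell by 0.24 and 0.26 in the lines. FGF21, the other mitochondrial stress hormone, had log2 fold-changes of 0.58, 0.53 and 0.48 with SEs of 0.491, 0.405 and 0.441, and passed in no line. XPOT, the tRNA exporter, fell by 0.14 with NRF1-FL and by 0.06 with NRF1-ΔE7 (0.04 under upper-quartile scaling), and its value without a transgene was -0.02 (0.07 under upper-quartile scaling, where it passed, adjusted p = 0.03062).

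The comparison of the isoforms gave another picture. Under siNRF1, NRF1-ΔE7 cells had 25 members higher and 3 lower relative to NRF1-FL, or 62.5% and 7.5% of the set, against 13.9% and 17.8% of all genes tested. Their median log2 fold-change was 0.13, against 0.00 over all genes. By role, 6 of 7 transcription factors, both phosphatase subunits, 5 of 8 serine, one-carbon and proline enzymes, 3 of 5 transporters, 3 of 5 feedback and growth-control genes, 3 of 5 secreted factors and receptors, ASNS, CBS and XPOT were higher. None of the 4 sensor and eIF2 genes was. Most differences were small: those above 0.5 on the log2 scale were CHAC1 and CBS, with ATF5 at the border. These libraries were also the ones where NRF1 RNA in the NRF1-ΔE7 line was the lower of the pair, by 0.37 on the log2 scale.

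**Figure D4:**
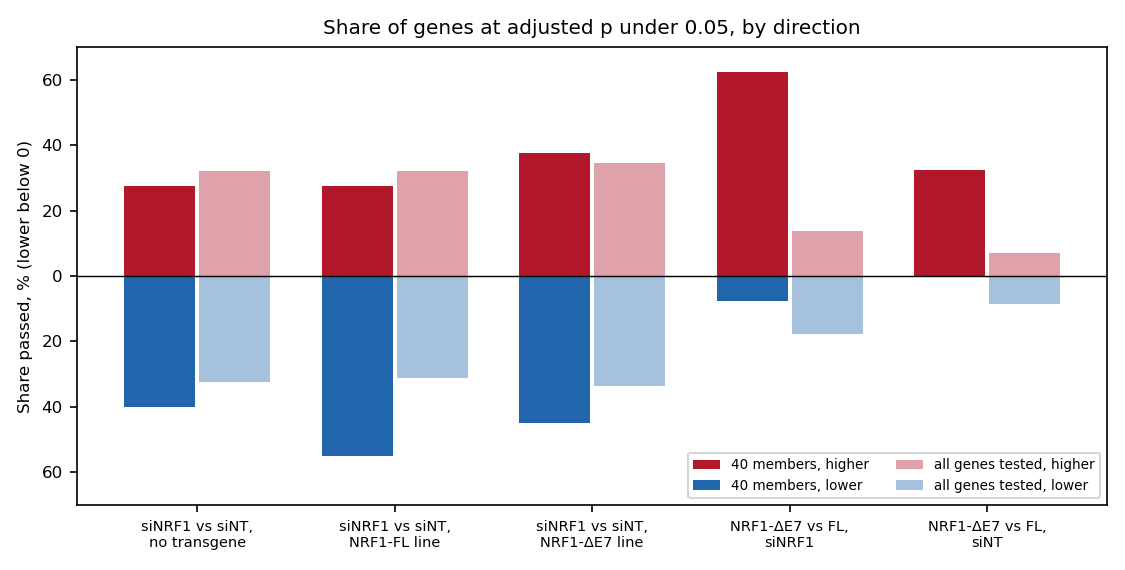
Share of the 40 members (dark) and of all genes tested (light) that were higher (red, above 0) or lower (blue, below 0) at an adjusted p under 0.05 in 5 comparisons. In the NRF1-FL line 55% of members against 31.3% of all genes were lower after siNRF1, and in the isoform comparison under siNRF1 62.5% of members against 13.9% of all genes were higher.

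CHAC1 (14.3, 15.8 and 13.97 CPM with NRF1-ΔE7, against 11.2, 9.23 and 9.20 with NRF1-FL) led the isoform comparison under siNRF1, with a log2 fold-change of 0.57 (SE 0.0913, adjusted p = 3.396e-05). CBS, which makes cystathionine, measured 29.8, 30.7 and 31.3 CPM with NRF1-ΔE7, against 18.9, 21.6 and 22.3 with NRF1-FL (log2 fold-change 0.55, SE 0.0762, adjusted p = 6.062e-06). The copy CBSL was higher as well, by 0.35 (adjusted p = 3.467e-06). ATF5 followed with 0.50 (SE 0.0460, adjusted p = 1.54e-08). In each of these genes all NRF1-ΔE7 libraries lay above all NRF1-FL libraries.

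The rest of the transcription factors were higher by smaller amounts, DDIT3 by 0.48, CEBPB by 0.29, ATF3 by 0.20, ATF4 by 0.16 and CEBPG by 0.10. DDIT3 measured 26.6, 28.98 and 28.7 CPM with NRF1-ΔE7 and 20.4, 18.6 and 21.6 with NRF1-FL. VLDLR (0.40), ASNS (0.36), EIF4EBP1 (0.29), STC2 (0.25), PSPH (0.23), SHMT2 (0.21), TRIB3 (0.21), SLC7A5 (0.21) and PSAT1 (0.20) were higher too. Below these came VEGFA (0.15), PPP1R15A (0.14), SLC3A2 (0.13), MTHFD2 (0.13), SLC38A2 (0.12), PPP1R15B (0.11), XPOT (0.11) and PHGDH (0.10). Single libraries decided the calls of PHGDH (lost without any of 3) and SLC7A5 (lost without either of 2). DDIT4 (0.18, adjusted p = 0.08399), GDF15 (-0.18), NUPR1 (0.50) and FGF21 (-0.53) did not pass.

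Lower with NRF1-ΔE7 under siNRF1 were EIF2S1, SLC1A5 and ALDH18A1. EIF2S1 measured 171, 173 and 173 CPM with NRF1-ΔE7 and 187, 185 and 188 with NRF1-FL, without overlap (log2 fold-change -0.11, SE 0.0298, adjusted p = 0.005933). SLC1A5 measured 209, 204 and 202 CPM with NRF1-ΔE7 and 237, 216 and 208 with NRF1-FL (-0.11, SE 0.0394, adjusted p = 0.04398). ALDH18A1 measured 149, 145 and 147 CPM with NRF1-ΔE7 and 158, 159.8 and 149 with NRF1-FL (-0.08, SE 0.0291, adjusted p = 0.03823). In the latter pair the groups overlapped, and both calls were lost under RLE and upper-quartile scaling and without any of several single libraries.

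**Figure D5:**
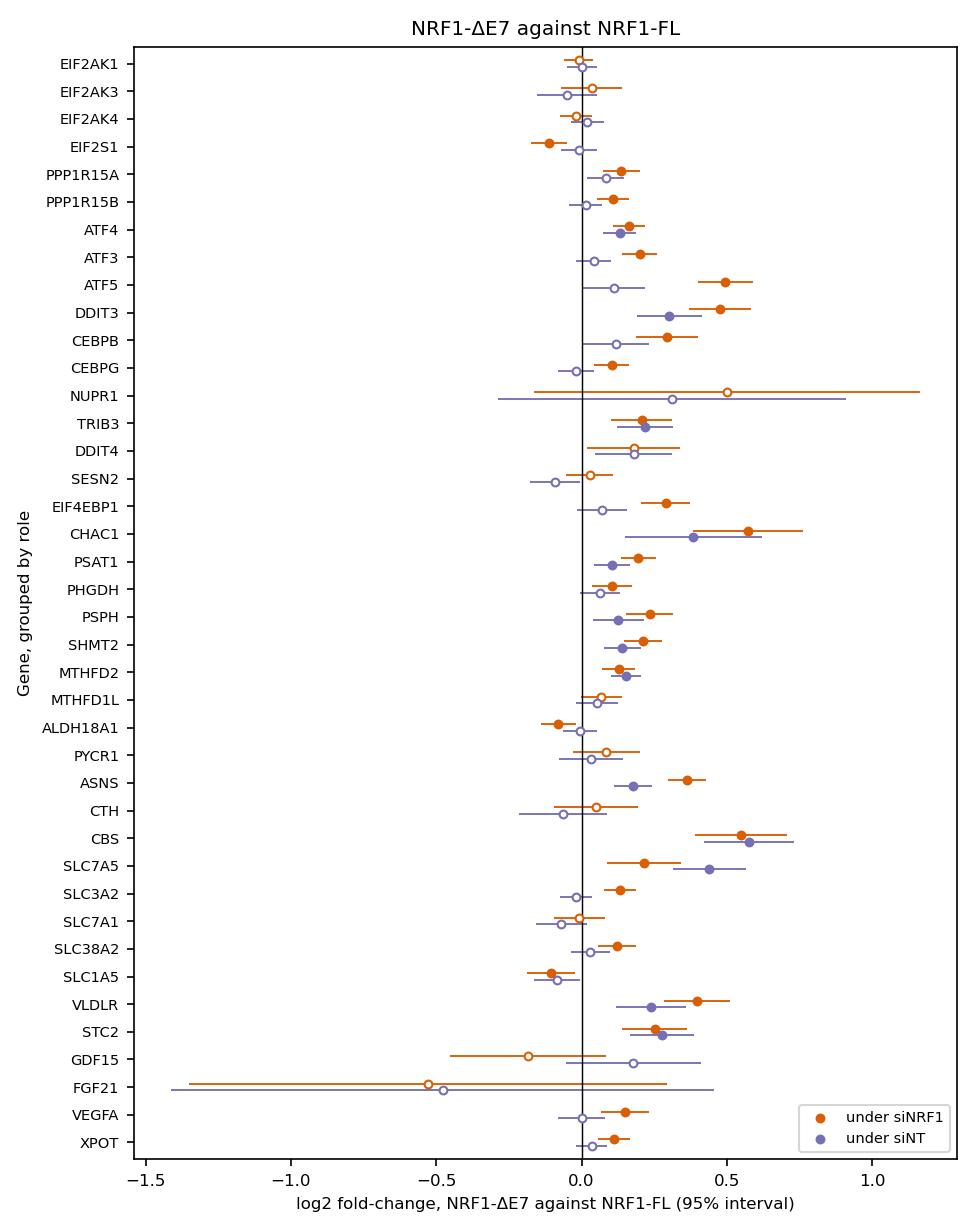
log2 fold-change of each gene, NRF1-ΔE7 against NRF1-FL, with 95% intervals, under siNRF1 (orange) and under siNT (purple). Filled points passed at an adjusted p under 0.05. Most points lie right of 0 under siNRF1, and 13 filled ones also do under siNT.

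The lines already differed under siNT, where endogenous NRF1 was present and NRF1 RNA was 54.4 CPM ± 1.78 with NRF1-FL and 58.5 CPM ± 0.555 with NRF1-ΔE7 (n = 3 each). In these libraries, none of which enter the comparison above, 13 members stood higher and 0 lower with NRF1-ΔE7, as against 7.13% and 8.42% of all genes, and the median log2 fold-change was 0.07 against -0.01. At an unadjusted p under 0.05, 2 members were lower in edgeR, and DESeq2 also called 0. The 13 were ASNS, ATF4, CBS, CHAC1, DDIT3, MTHFD2, PSAT1, PSPH, SHMT2, SLC7A5, STC2, TRIB3 and VLDLR. The PSPH call was lost in 8 and the PSAT1 call in 3 of the alternative settings. Each of the 13 was higher under siNRF1 too, so 32.5% of members passed under both siRNAs, as did 4.62% of all genes.

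CBS showed the largest difference under siNT, at 38.3, 37.9 and 31.6 CPM with NRF1-ΔE7 and 22.5, 26.3 and 23.4 with NRF1-FL (0.58, SE 0.0754, adjusted p = 7.724e-06). CBSL was higher by 0.21 (adjusted p = 0.003377). SLC7A5 measured 158, 148 and 142 CPM with NRF1-ΔE7 and 109.8, 109 and 111 with NRF1-FL (0.44, SE 0.0604, adjusted p = 1.42e-05). CHAC1 came next at 6.71, 5.38 and 5.61 CPM against 4.31, 5.25 and 3.98 (0.38, SE 0.114, adjusted p = 0.02338), a call lost without the first or the third NRF1-FL library or the first NRF1-ΔE7 library. ATF5, which differed by 0.50 under siNRF1, had a value of 0.11 under siNT and did not pass (adjusted p = 0.1631).

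Whether the siRNA response itself differed between lines was tested as an interaction. Between the NRF1-ΔE7 and NRF1-FL lines 5 members passed with a more positive response with NRF1-ΔE7 and 0 with a more negative one, against 1.64% and 5.55% of all genes. Of the others, 3 had an unadjusted p under 0.05 and a more negative value in edgeR, and DESeq2 called 0. ATF5 had the largest interaction, 0.38 (SE 0.0690, adjusted p = 5.678e-04). EIF4EBP1 measured 85.8, 81.0 and 77.9 CPM with siNT and 76.0, 75.0 and 79.2 with siNRF1 in the NRF1-ΔE7 line, and 76.3, 78.1 and 78.5 with siNT and 65.9, 62.7 and 59.8 with siNRF1 in the NRF1-FL line. Its siRNA groups overlapped in the NRF1-ΔE7 line and not in the NRF1-FL line, and the interaction was 0.22 (SE 0.0581, adjusted p = 0.02046), lost without any of 6 single libraries. ASNS, with the library values above, had an interaction of 0.19 (SE 0.0448, adjusted p = 0.009872). ATF3 and SLC3A2 also passed. For ATF4 the interaction was 0.03 (95% interval -0.05 to 0.11) and for CHAC1 0.19 (-0.11 to 0.49), and neither passed.

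Against the response without a transgene, the NRF1-FL line differed in 1 member upward and 1 downward (4.18% and 1.15% of all genes). The downward count was 4 under RLE scaling, 7 in DESeq2, 8 with no filter on low counts and 4 without the first siNRF1 library of the NRF1-FL line. ATF5 responded less with NRF1-FL (-0.56, SE 0.0694, adjusted p = 6.286e-06) and PPP1R15A more (0.16, SE 0.0436, adjusted p = 0.03602). The ATF5 value passed under every alternative setting, whereas PPP1R15A was lost in 11 of them. Among these 11 was the fit without the third siNRF1 library of cells without a transgene (0.14, adjusted p = 0.09678). With NRF1-ΔE7, 2 members responded more and 2 less than without a transgene (0.44% and 1.59% of all genes). PPP1R15A (0.21, SE 0.0434, adjusted p = 0.01061) and SLC3A2 (0.20, SE 0.0378, adjusted p = 0.004688) were the more positive. SLC7A5 fell from 158, 148 and 142 to 107, 98.2 and 93.7 CPM with NRF1-ΔE7 and from 130.1, 119 and 118 to 97.0, 101 and 117 CPM without a transgene, so its interaction was negative (-0.36, SE 0.0857, adjusted p = 0.02854). MTHFD2 was the other negative one (-0.14, SE 0.0366, adjusted p = 0.04193). The SLC7A5 call was lost without any of 6 single libraries and the MTHFD2 call in 10 of the alternative settings. Without the third siNRF1 library, which had the highest sum of the 4 keratinocyte markers, the SLC7A5 interaction was -0.27 (adjusted p = 0.06796). That of MTHFD2 also did not pass (adjusted p = 0.07549). For ATF5 the difference between NRF1-ΔE7 and no transgene was -0.17 (95% interval -0.31 to -0.03, adjusted p = 0.2052). These interactions share the libraries without a transgene.

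The lines were also set against cells without a transgene under siNT, the NRF1-FL and NRF1-ΔE7 comparisons sharing those siNT libraries. With NRF1-FL 0 members were higher and 8 lower, against 5.33% and 2.81% of all genes, and 2 had an unadjusted p under 0.05 and a higher value in edgeR, while DESeq2 called 0. DDIT4 showed the largest decrease (-0.47, SE 0.0625, adjusted p = 2.931e-05), with the siNT values given above. CBS followed (-0.27, SE 0.0772, adjusted p = 0.03172), but its copy CBSL was higher there by 0.28 (log2). DDIT3 had 17.9, 18.4 and 18.3 CPM with NRF1-FL and 20.9, 21.1 and 21.8 without a transgene (-0.22, SE 0.0543, adjusted p = 0.01179). The CBS call was lost without any of 4 single libraries and the DDIT3 call without either of 2. ATF4, PSAT1, MTHFD2, CEBPG and VLDLR were the other 5, at -0.20 to -0.10. The count fell to between 3 and 6 when any 1 library was left out.

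With NRF1-ΔE7 7 members were higher and 2 lower than without a transgene under siNT (8.62% and 7.69% of all genes). CBS (0.31, SE 0.0745, adjusted p = 0.005693), SLC7A5 (0.28, SE 0.0603, adjusted p = 0.001708) and TRIB3 led. TRIB3 measured 41.1, 40.04 and 38.7 CPM with NRF1-ΔE7 and 34.6, 32.0 and 34.6 without a transgene (0.24, SE 0.0466, adjusted p = 7.213e-04), without overlap. SHMT2 (0.18), PYCR1 (0.17), PSPH (0.13) and ASNS (0.10) were higher as well, the calls of PYCR1, PSPH and ASNS being lost in 4, 6 and 5 of the alternative settings. DDIT4 was lower here too (-0.29, SE 0.0620, adjusted p = 0.001883). CEBPG measured 199, 198 and 200 CPM with NRF1-ΔE7 and 214, 221 and 214 without a transgene (-0.12, SE 0.0299, adjusted p = 0.00645). ATF4 itself was 0.02 apart (95% interval -0.03 to 0.08) from the cells without a transgene.

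Members with a TGATGNAA match were set beside those without one in the isoform comparison under siNRF1. Of the 10 with a match 6 were higher and 1 lower, with a median log2 fold-change of 0.11, and of the 23 without a match 15 were higher and 2 lower, with a median of 0.14. Among all genes 13.9% were higher and 17.8% lower. CHAC1, ASNS, ATF3, CEBPG and PPP1R15B, whose matches are shown above, were among the 6, and SLC1A5 was the 1. Under siNT 2 of the 10 and 9 of the 23 were higher (medians -0.002 and 0.11), beside 7.13% of all genes. In the interaction of these lines 3 of the 10 and 1 of the 23 passed as more positive (medians 0.11 and 0.04), beside 1.64% of all genes. In both, 0 members passed as lower. Whether a match goes with the response was not tested.

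A second list held 58 tested genes of the same pathways that are not members, such as further subunits of eIF2 and eIF2B, amino acid carriers and one-carbon enzymes. Without a transgene 18 of them were higher and 24 lower after siNRF1 (31% and 41.4%, beside 32.1% and 32.4% of all genes), with a median log2 fold-change of -0.07. The largest decreases were those of the stress-responsive NDRG1 (-1.24, SE 0.0472, adjusted p = 1.738e-16), the proline-degrading enzyme ALDH4A1 (-1.03, adjusted p = 1.005e-15) and the cystine carrier SLC7A11 (-1.02, adjusted p = 6.798e-10). The cationic amino acid carrier SLC7A3 (1.23, SE 0.436, adjusted p = 0.0174, under 1 CPM throughout) and SESN1 (0.65, adjusted p = 7.342e-13), a relative of SESN2, were among the largest increases.

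In the isoform comparison under siNRF1 16 of the 58 were higher and 11 lower with NRF1-ΔE7 (27.6% and 19%, beside 13.9% and 17.8% of all genes), with a median of 0.02. ALDH1L2, the mitochondrial formyl-folate dehydrogenase, measured 13.3, 14.4 and 11.5 CPM with NRF1-ΔE7 and 3.90, 4.37 and 5.19 with NRF1-FL (1.54, SE 0.0923, adjusted p = 9.526e-12). Under siNT it measured 15.2, 13.9 and 15.8 CPM with NRF1-ΔE7, 3.996, 3.49 and 3.71 with NRF1-FL and 7.83, 8.14 and 8.04 without a transgene. The gap between the lines was thus present under siNT as well. JDP2, a bZIP repressor (0.79, SE 0.172, adjusted p = 9.992e-04), and the alanine transaminase GPT2 (0.49, SE 0.0381, adjusted p = 6.982e-10) were the next higher. DEPTOR, an inhibitor of mTOR (-0.40, adjusted p = 0.008491), the eIF2B subunit EIF2B5 (-0.38, adjusted p = 1.5e-09) and the cytosolic folate enzyme MTHFD1 (-0.33, adjusted p = 1.162e-10) were the lowest.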

How the data were processed

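RNA was poly(A)-selected and made into stranded libraries. Reads had been cut with Cutadapt 1.18 and aligned by the authors with STAR 2.7.0f to hg38 and GENCODE v30. DESeq2 1.46.0 is also listed in the processing notes of the submitters. The deposited values are estimated counts per gene, not normalized (91.9% whole). How reads were counted, and with which strand setting, the sources used here do not give. The table has 36 value columns, of which 18 match no sample of this experiment and were not used.

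Estimated counts were rounded. Genes were kept by filterByExpr (minimum count 10), which left 17962, and libraries were scaled by TMM. The edgeR 4.0.16 quasi-likelihood test was run in R 4.3.3 with the 18 libraries in 1 fit, adjusting by Benjamini-Hochberg over every gene tested and no fold threshold. The members, lists and rule for named genes were chosen with earlier results of these data known. The rule gave library values for ATF4 and the 3 largest passed changes in each direction per comparison with at least 1 CPM, and other library values were chosen after they were seen. Gene positions and 3′ UTRs come from GENCODE v44, later than the v30 of the counts. Of 60 names on the second list 58 were found. The values of 1 gene that the rule names are not reported here. The steps were run on simulated counts with the same spread for every gene. That checks the code and not how well the model describes these libraries. Replicate numbers do not pair the samples: same-numbered libraries had correlations of deviations from -0.116 to 0.0641, none above 0.1. Alternatives were RLE and upper-quartile scaling, other count filters, DESeq2 1.42.0, fits of only the compared conditions, a replicate block, a fold threshold of 0.5 and leaving out each library.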

Additional observations from a re-analysis of the deposited data

Results flagged for a closer look

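The siRNA response of 8 genes differed between lines by the interaction test of edgeR (quasi-likelihood, Benjamini-Hochberg adjusted over all genes). Between the NRF1-ΔE7 and NRF1-FL lines the difference was 0.38 on the log2 scale for ATF5 (adjusted p = 5.678e-04), 0.22 for EIF4EBP1 (adjusted p = 0.02046), 0.19 for ASNS (adjusted p = 0.009872), 0.16 for ATF3 (adjusted p = 0.01769) and 0.15 for SLC3A2 (adjusted p = 0.01237). ATF5 and ASNS passed under every alternative, whereas ATF3 was lost in 3, EIF4EBP1 in 6 and SLC3A2 in 1.

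Between the NRF1-FL line and cells without a transgene the difference was -0.56 for ATF5 (adjusted p = 6.286e-06) and 0.16 for PPP1R15A (adjusted p = 0.03602). Between the NRF1-ΔE7 line and cells without a transgene it was 0.21 for PPP1R15A (adjusted p = 0.01061), 0.20 for SLC3A2 (adjusted p = 0.004688), -0.36 for SLC7A5 (adjusted p = 0.02854) and -0.14 for MTHFD2 (adjusted p = 0.04193). PPP1R15A and SLC3A2 in the latter comparison and ATF5 in the former passed under every alternative. These comparisons share libraries, so the values are not independent.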

How the results depend on the processing

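Of 162 values of members that passed, 119 passed under every alternative other than the fold threshold, 43 were lost under 1 or more, and 39 further values passed under 1 or more. A change of sign in a value that passed before or after it was seen 7 times, for 3 of the 162 and for 4 values that passed only afterwards. All 7 arose under upper-quartile scaling, which moved the median of all genes by at most 0.0967 on the log2 scale. They were PPP1R15A (0.0805) and XPOT (0.0661) without a transgene, SLC3A2 (0.0829) in the NRF1-FL line, and EIF2AK4 (0.10), EIF2S1 (0.0189), MTHFD1L (0.0043) and XPOT (0.0376) in the NRF1-ΔE7 line, each for siNRF1 against siNT. That scaling also left 11 members lower in the NRF1-ΔE7 line. The cause was not tested.

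With an absolute log2 fold-change above 0.5 required, siNRF1 against siNT gave 4 members higher and 7 lower without a transgene, 1 and 9 in the NRF1-FL line and 3 and 9 in the NRF1-ΔE7 line. NRF1-ΔE7 against NRF1-FL gave 2 and 0 under siNRF1 and 1 and 0 under siNT. The interactions and the comparisons of lines under siNT gave 0 in either direction, except 1 lower for the NRF1-FL line against no transgene as an interaction (ATF5).

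In the isoform comparison under siNRF1 the members lower were 1 under RLE scaling, 1 under upper-quartile scaling and 1 in a fit of only the compared conditions. Under siNT the latter fit gave 1 lower in place of 0, and for the interaction of these lines it gave 1 lower, as did a fit with no filter on low counts. For the interaction of the NRF1-FL line with no transgene the members higher were 0 under RLE scaling and 0 with no filter. The members lower were 4 under RLE scaling, 8 with no filter, 4 with only the compared conditions, 7 in DESeq2 and 3 with the replicate block. For the NRF1-ΔE7 line with no transgene the members lower were 1 under upper-quartile scaling, 4 with no filter and 1 with only the compared conditions. Seed matches in members were 2, and 1 when an A had to follow. Because replicate numbers do not pair the samples, the block is given here only. It lost 1 passed value, 7 of 18 libraries correlated best with their own number, and for siNRF1 against siNT without a transgene it gave 11 higher and 16 lower.

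Leaving out single libraries gave, for siNRF1 against siNT, 11 to 13 members higher and 14 to 16 lower without a transgene, 9 to 11 and 20 to 21 in the NRF1-FL line and 13 to 15 and 16 to 19 in the NRF1-ΔE7 line. NRF1-ΔE7 against NRF1-FL had 23 to 26 higher and 1 to 3 lower under siNRF1 (1 lower without the first or second library of either line or the third NRF1-ΔE7 library), and 10 to 13 higher and 0 lower under siNT. Their interaction had 2 to 5 higher (2 without the second siNRF1 NRF1-FL library) and 0 to 1 lower (1 without the first siNRF1 NRF1-ΔE7 library). The NRF1-FL interaction with no transgene had 0 to 1 higher (0 without any of 9 libraries) and 1 to 4 lower, 4 without the first siNRF1 NRF1-FL library, and that of NRF1-ΔE7 had 2 to 3 and 0 to 3, with 0 without any siNT NRF1-ΔE7 library 1 or 2, siNT library 3 or siNRF1 NRF1-ΔE7 library 3. Under siNT the NRF1-FL line had 0 to 1 higher (1 without its first library) and 3 to 6 lower, 3 without the first library of either group. The NRF1-ΔE7 line had 4 to 7 higher, 4 without its first library or without the second or the third siNT library, and 2 lower. Depth limits NUPR1 and FGF21, each near or below 1 CPM.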
